A study of Homo sapiens with 16 samples.

Results

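The genes of cholesterol synthesis and uptake were followed in U-251 MG cells, a long-established line from a human glioblastoma, across 4 treatments. The set was a named list of 27 genes, taken from the 58243 genes of the count table by symbol. It ran from ACAT2, at the entry of the pathway, to DHCR7 at its end, with the control genes of SREBP2 and 4 genes of sterol uptake and transport. Each symbol matched 1 gene, and all 27 passed the filter on low counts, which left 16647 genes to test. Cells were grown in high-glucose medium with serum and were treated for 48 h, from 24 h after seeding. The DMSO group received vehicle, the simvastatin group 0.06 µM simvastatin, the irinotecan group 0.6 µM irinotecan, and the combination group both drugs at those doses. Each group held 4 libraries of poly(A) RNA from this 1 cell line. Whether the 4 libraries stem from separate cultures is not in the labels, and the p-values then measure only the spread between these libraries, which may be technical.

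Cells make cholesterol from acetyl-CoA. Enzymes of the mevalonate arm build isoprenoid units, which are joined into squalene, closed into the ring of lanosterol and trimmed to cholesterol. Statins such as simvastatin block the step that makes mevalonate. When sterol in the endoplasmic reticulum is low, the escort protein SCAP carries the transcription factor SREBP2 (gene SREBF2) to the Golgi, where it is cut and freed to switch on most genes of the pathway. When sterol is high, the INSIG proteins hold SCAP back. Glial cells are known as the main makers of cholesterol in the brain, which takes up little from blood. Irinotecan is turned in the body into an inhibitor of topoisomerase I and is not aimed at sterol synthesis.

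Library totals were 24159673 to 32318888 counts, and mitochondrially encoded genes held 2.37% to 4.58% of counts with overlapping ranges in the 4 groups. Levels are given as CPM, counts scaled to the library total after TMM factors, a correction for library composition. The levels and sums of marker genes below, and the level of TCP1 further on, are scaled to the library total alone, without TMM factors. The labelled cell type was checked against glial markers: VIM was at 1446 to 2032 CPM, NES at 833 to 1203 CPM and GFAP at 89.9 to 209 CPM in the 16 libraries, whereas AQP4 and OLIG2 stayed at or under 0.217 CPM. Summed glial markers were at 6953 to 7169 CPM with DMSO and 5399 to 5562 CPM with irinotecan. Summed markers of hepatocytes, cells known for high sterol synthesis, did not pass 1.47 CPM in any library, with ALB at 0.297 CPM or less and TTR at 0 in all 16. They were at 0.344 to 0.632 CPM with DMSO and 0.89 to 1.47 CPM with irinotecan. Summed neuron markers were at 15.8 to 18.0 CPM with DMSO and 20.4 to 23.3 CPM with irinotecan. Simvastatin stood apart from DMSO as well, with summed glial markers at 6769 to 6868 CPM and summed neuron markers at 19.4 to 22.1 CPM. Of single markers, GFAP (-0.19 on the log2 scale, adjusted p = 0.0023) and CD44 (-0.11, adjusted p = 0.0412) fell and SYT1 (0.34, adjusted p = 0.00172) rose with simvastatin in edgeR's test. Summed markers of endothelial cells and leukocytes stayed at or under 1.73 CPM in every library. Whether these shifts have a part in the results below was not tested.

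The promoters of the sterol genes are shown because the letters that SREBP2 and its partner NF-Y are known to bind stand close together in some of them. RefSeq (GRCh38.p14) gave the 250 bases before the transcription start for 24 of the 27 genes, all but ACAT2, FDFT1 and SQLE. They were searched on both strands for TCACNCCA, a core of the sterol regulatory element, for CCAAT, the box of NF-Y, and for GGGCGG, the box of Sp1. None of these 3 motifs contains another. CCAAT was found in 18 of the 24 (75.0%), beside 37.0% of all 27305 genes with such an entry, and 12 of the 24 held it 2 or more times. TCACNCCA was found in MVK, MSMO1 and SREBF2 (12.5%, beside 3.92% of all genes), and GGGCGG in 22 (91.7%, beside 46.2%). The 6 genes with no CCAAT were PMVK, CYP51A1, LBR, INSIG2, SCAP and NPC1. The 27305 genes were not limited to the 16647 tested here, whereas all 27 genes of the set were tested, so these shares compare unlike sets. A match is a description of letters and not a measured site. Below are the promoters of 4 genes called with both single drugs, 5′ to 3′ on the strand of the gene and ending at the base before the start, with the NF-Y box (which reads ATTGG where it lies on the other strand) and the sterol core in capitals. They lie at chr5:43313413-43313662 on the minus strand (HMGCS1) and, on the plus strand, at chr4:165327419-165327668 (MSMO1), chr7:155297628-155297877 (INSIG1) and chr2:118088221-118088470 (INSIG2).
HMGCS1: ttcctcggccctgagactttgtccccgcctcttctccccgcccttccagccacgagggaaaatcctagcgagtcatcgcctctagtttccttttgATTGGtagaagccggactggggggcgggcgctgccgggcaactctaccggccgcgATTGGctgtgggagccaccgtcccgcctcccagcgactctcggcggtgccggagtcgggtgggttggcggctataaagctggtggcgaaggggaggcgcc
MSMO1: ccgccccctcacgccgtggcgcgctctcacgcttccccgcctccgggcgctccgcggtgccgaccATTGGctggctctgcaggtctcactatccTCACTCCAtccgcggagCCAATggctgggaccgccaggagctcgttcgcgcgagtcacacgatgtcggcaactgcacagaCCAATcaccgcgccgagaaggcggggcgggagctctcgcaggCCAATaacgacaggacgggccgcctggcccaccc
INSIG1: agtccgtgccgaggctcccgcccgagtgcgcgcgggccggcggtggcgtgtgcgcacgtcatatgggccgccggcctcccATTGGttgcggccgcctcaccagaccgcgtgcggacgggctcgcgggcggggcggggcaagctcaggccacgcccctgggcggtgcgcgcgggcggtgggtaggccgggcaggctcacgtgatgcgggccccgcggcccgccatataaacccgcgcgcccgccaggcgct
INSIG2: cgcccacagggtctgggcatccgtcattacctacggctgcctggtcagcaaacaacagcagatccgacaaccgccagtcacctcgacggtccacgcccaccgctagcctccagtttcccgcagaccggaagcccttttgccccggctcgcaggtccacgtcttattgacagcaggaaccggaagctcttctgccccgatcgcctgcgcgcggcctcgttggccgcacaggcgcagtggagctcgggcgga

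Positions count back from the start, with -1 as the base before it. In HMGCS1 the NF-Y boxes began at -155 and -100. In MSMO1 the box was found 4 times, and the sterol core ended at -149, next to a box that began at -139. INSIG1 had 1 box, at -170, and its relative INSIG2 had none. In SREBF2 the sterol core began at -133 and a box at -106.

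**Figure D1:**
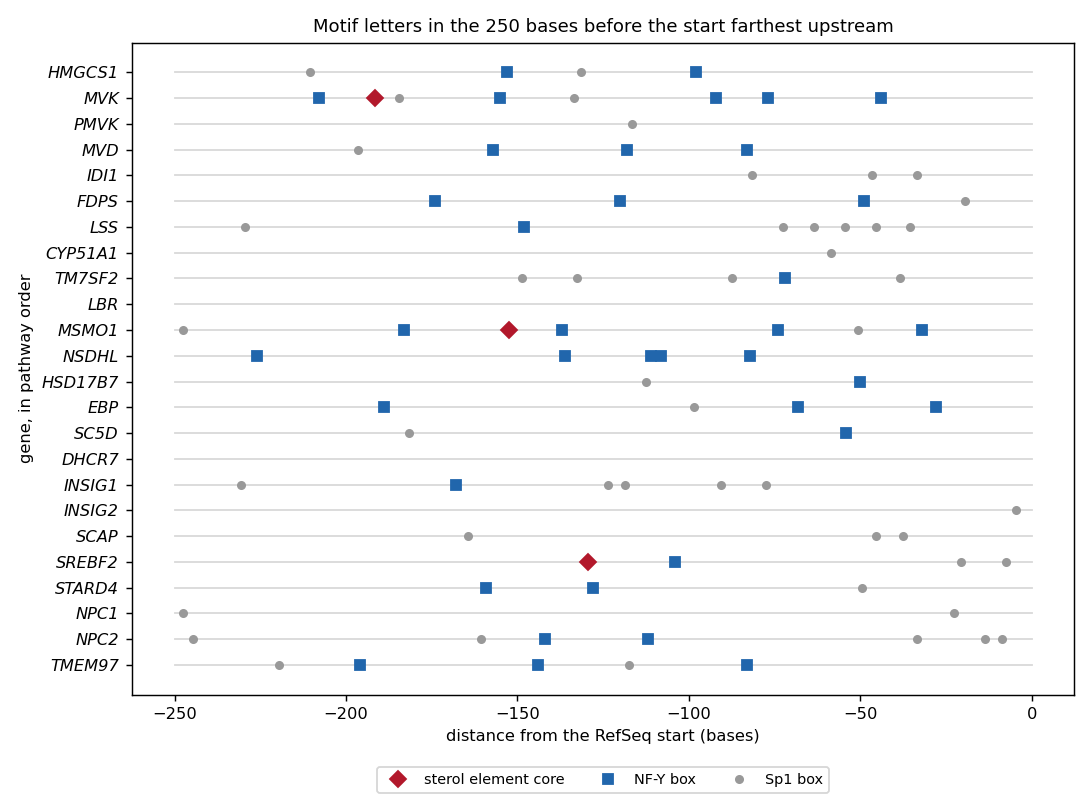
Matches to the 3 motifs in the 250 bases before the RefSeq start, with 1 line per gene for the 24 genes that had an entry, in pathway order (x axis, distance from the start in bases; y axis, gene). Where a gene has several starts, the one farthest upstream is drawn, so boxes of DHCR7, IDI1 and NPC2 that lie before other starts are not shown; MVK, MSMO1 and SREBF2 carry the sterol core.

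Levels in vehicle-treated cells were compared per length of exon, as CPM per kilobase of all annotated exons. INSIG1, which holds SCAP in the endoplasmic reticulum, and DHCR7, the last enzyme of the pathway, had the highest values, 72.7 ± 4.0 and 71.9 ± 1.4 CPM per kilobase (SD, n = 4), and did not differ beyond their spread. FDFT1, which makes squalene, followed at 39.0 ± 1.1 and SREBF2 at 36.9 ± 1.5 CPM per kilobase. CYP51A1, the demethylase that acts on lanosterol, was lowest at 0.631 ± 0.051 CPM per kilobase. Of its exonic bases, 83.2% lie in exons of other annotated genes, most of them (79.4%) in AC000120.2 on the same strand. AC000120.2 has no entry among the counts under its annotated identifier, so the annotation used for counting may lack this overlap. The counts of CYP51A1 are uncertain, and whether the overlap affected them was not tested. ACAT2 shares 52.3% of its exonic bases with genes on the opposite strand. Among them are SOD2, which has no entry among the counts either, and TCP1 (279 to 299 CPM). The shares were 18.6% for FDPS, 15.0% for HMGCS1, 14.8% for IDI1 and 11.9% for TMEM97, and the strand setting of the counting is not given in the sources used here.

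Simvastatin against DMSO asked what the statin alone did to these genes. Of the 27 genes, 6 rose and none fell (3.89% of all genes tested rose and 2.11% fell). A gene is said to rise or fall at an adjusted p under 0.05 in edgeR's quasi-likelihood test. The 6 were spread along the pathway: HMGCS1, which makes HMG-CoA, IDI1, which isomerises the isoprenoid unit, SQLE, which adds oxygen to squalene, MSMO1, which takes methyl groups off the sterol ring, and both INSIG genes. In these 6, and in no other of the 27, the libraries of the groups did not overlap, all with simvastatin higher (10.0% of all genes did not overlap, 5.76% with simvastatin higher and 4.24% with it lower). The number of all genes that fell was 352, and it was 195 without simvastatin replicate 4 and 580 without simvastatin replicate 3. The median log2 fold change of the 27 was 0.09, beside -0.01 over all genes tested.

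INSIG2 had the highest fold change of the set with simvastatin. It was at 32.6, 32.3, 34.7 and 28.9 CPM with DMSO and at 46.2, 48.0, 47.5 and 50.8 CPM with simvastatin, in the order of replicates 1 to 4. Every simvastatin library was above every DMSO library, and the log2 fold change was 0.58 ± 0.06 (standard error, adjusted p = 1.63e-07), a fold of 1.50. INSIG1 was at 248, 259.9, 276 and 278 CPM with DMSO and at 283, 302, 320.5 and 298 CPM with simvastatin. The groups lay apart by a narrow margin, and the log2 fold change was 0.18 ± 0.04 (adjusted p = 0.00311).

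Among the enzymes, HMGCS1 was at 122, 138, 139 and 127 CPM with DMSO and at 162, 174, 193 and 167 CPM with simvastatin (0.41 ± 0.05 on the log2 scale, adjusted p = 7.76e-07). MSMO1 was at 59.2, 59.8, 62.0 and 57.9 CPM with DMSO and at 71.5, 73.1, 77.5 and 70.5 CPM with simvastatin (0.29 ± 0.04, adjusted p = 1.62e-05). SQLE was at 70.8, 71.1, 71.9 and 74.3 CPM with DMSO and at 82.9, 83.5, 91.9 and 90.4 CPM with simvastatin (0.28 ± 0.04, adjusted p = 5.62e-05). The lowest simvastatin library of these 3 genes was above their highest DMSO library. IDI1 was at 50.8, 57.4, 56.0 and 55.1 CPM with DMSO and at 60.5, 59.7, 62.9 and 61.9 CPM with simvastatin (0.16 ± 0.05, adjusted p = 0.0337). The call for IDI1 was lost without DMSO replicate 1 or 4 or without simvastatin replicate 1, 3 or 4, each left out alone (0.13 to 0.17, adjusted p = 0.0646 to 0.151). MVD, which decarboxylates the mevalonate unit, had 0.20 ± 0.07 (adjusted p = 0.0875), and it passed the test without DMSO replicate 1 (0.25, adjusted p = 0.0268) or irinotecan replicate 4 (0.20, adjusted p = 0.0455).

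The factor itself did not pass the test. SREBF2 was at 282, 271, 295 and 269 CPM with DMSO and at 276, 277, 290.2 and 264 CPM with simvastatin (-0.01 ± 0.04, adjusted p = 0.925). SCAP, its escort, stood at -0.07 ± 0.04 on the log2 scale (adjusted p = 0.436). The 4 genes of uptake and transport lay between -0.08 and 0.09, and none passed: STARD4, which carries sterol through the cytosol, NPC1 and NPC2, which move cholesterol out of the lysosome, and TMEM97, which binds NPC1. Of the other late enzymes, EBP, SC5D, DHCR7, NSDHL, HSD17B7, LBR and TM7SF2 lay between -0.05 and 0.13. CYP51A1, with its low counts, was at 0.21 ± 0.18 (adjusted p = 0.635).

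**Figure D2:**
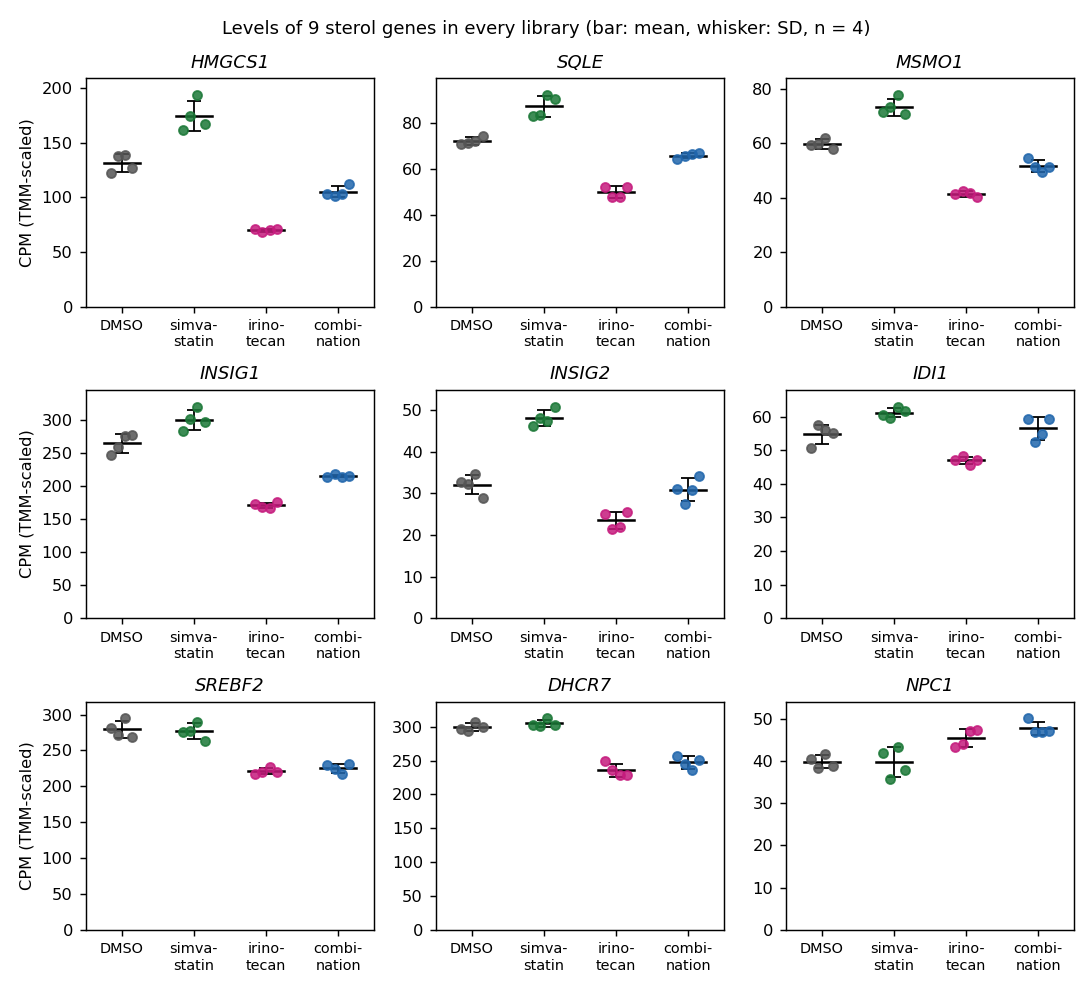
Levels of 9 sterol genes (y axis, CPM from 0) in the 4 libraries of each treatment (points; bar, mean; whisker, SD). HMGCS1, SQLE, MSMO1, INSIG1 and INSIG2 are highest with simvastatin and lowest with irinotecan, and NPC1 is higher in the 8 libraries with irinotecan than the DMSO mean of 39.8 CPM.

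Irinotecan against DMSO asked what the topoisomerase drug alone did to them. Of the 27 genes, 16 fell and 3 rose (11.7% and 12.4% of all genes tested). All 3 enzymes from squalene to lanosterol fell, as did 5 of the 7 genes of the mevalonate arm, 4 of the 9 later enzymes, 3 of the 4 SREBP2 control genes and STARD4. TM7SF2, NPC1 and NPC2 rose. The libraries of the groups did not overlap in 17 of the 27 genes (23.4% of all genes), and the median log2 fold change was -0.22, beside 0.00 over all genes.

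HMGCS1 fell most, to 71.1, 68.1, 70.3 and 70.7 CPM in the 4 irinotecan libraries (-0.91 ± 0.05, adjusted p = 4.64e-14). That was 53.3% of its DMSO mean. INSIG1 fell to 173, 168, 167 and 176 CPM (-0.64 ± 0.04, adjusted p = 2.51e-13). SQLE fell to 52.2, 47.6, 47.6 and 51.9 CPM (-0.53 ± 0.04, adjusted p = 1.23e-10). MSMO1 fell to 41.2, 42.3, 41.6 and 40.0 CPM (-0.53 ± 0.04, adjusted p = 1.08e-10). In each of these 4 genes the highest irinotecan library was below the lowest DMSO library.

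INSIG2 fell to 25.1, 21.4, 22.0 and 25.5 CPM (-0.45 ± 0.07, adjusted p = 5.41e-06). FDFT1 was at 201, 198, 212 and 201 CPM with DMSO and at 163, 156, 149 and 150.2 CPM with irinotecan (-0.39 ± 0.04, adjusted p = 1.73e-09). SREBF2 fell to 217, 220.2, 227 and 219.7 CPM, 79.1% of its DMSO mean (-0.34 ± 0.04, adjusted p = 2.37e-08). The DMSO and irinotecan libraries did not overlap in any of these 3 genes. DHCR7 was at 297, 294, 307 and 299.6 CPM with DMSO and at 249, 236, 229 and 229 CPM with irinotecan (-0.34 ± 0.04, adjusted p = 7.98e-09). SCAP was at 85.5, 79.6, 84.3 and 78.1 CPM with DMSO and at 81.5, 84.2, 81.9 and 77.8 CPM with irinotecan (-0.01 ± 0.04, adjusted p = 0.925), and these groups overlapped.

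The other falls were those of ACAT2 (-0.36), MVD (-0.34), HSD17B7 (-0.31), LSS (-0.27), which closes the sterol ring, IDI1 (-0.22), STARD4 (-0.22), FDPS (-0.20), which makes farnesyl diphosphate, and LBR (-0.15). LBR is a sterol reductase that also anchors chromatin to the nuclear envelope. Those of FDPS and LBR did not pass with library sizes alone as scaling (-0.12 and -0.08, adjusted p = 0.0609 and 0.143). Under that scaling TMEM97 rose (0.16, adjusted p = 0.00341), and over all genes the calls went from 2064 higher and 1951 lower to 3789 higher and 1079 lower.

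TM7SF2, which encodes a reductase for the same step as LBR, moved the other way. It was at 19.6, 19.8, 19.5 and 15.6 CPM with DMSO and at 26.1, 24.9, 22.9 and 23.5 CPM with irinotecan (0.39 ± 0.07, adjusted p = 6.1e-05), with no overlap. NPC1 was at 40.6, 38.3, 41.6 and 38.8 CPM with DMSO and at 43.3, 44.0, 47.3 and 47.3 CPM with irinotecan (0.19 ± 0.05, adjusted p = 0.00901). NPC2 was at 71.5, 67.5, 69.4 and 77.8 CPM with DMSO and at 87.0, 83.3, 74.9 and 76.8 CPM with irinotecan (0.17 ± 0.05, adjusted p = 0.00895). The libraries of NPC1 lay apart and those of NPC2 overlapped. NPC2 was not called without irinotecan replicate 1 (0.13, adjusted p = 0.0611). Gene lengths ran from 4.54 to 80.7 kb, with a median of 22.3 kb for the 16 genes that fell, 18.0 kb for the 3 that rose and 19.4 kb for the 8 that did not pass the test.

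**Figure D3:**
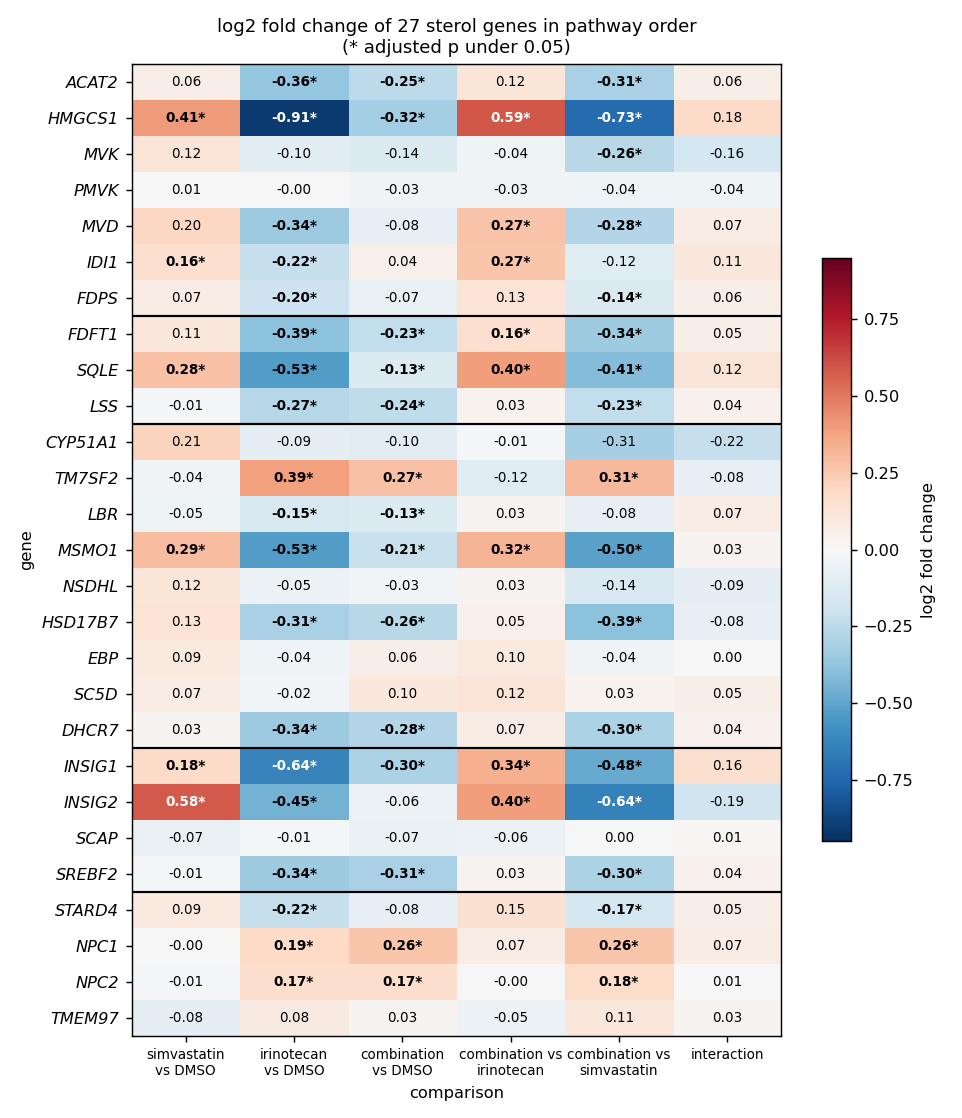
log2 fold changes of the 27 genes (rows, in pathway order; lines part the mevalonate arm, squalene to lanosterol, lanosterol to cholesterol, SREBP2 control, and uptake and transport) in 5 comparisons and the interaction (columns). Stars and bold type mark an adjusted p under 0.05; irinotecan against DMSO has 16 falls and 3 rises, simvastatin against DMSO 6 rises, and the interaction has no star.

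The combination against DMSO asked where both drugs together left these genes. Of the 27 genes, 14 were called (28.1% of all genes tested), of which 11 fell and 3 rose (13.0% and 15.1% of all genes), and 13 did not pass. With library sizes alone 9 fell and 5 rose (8.42% and 23.2% of all genes), with EBP (0.12, adjusted p = 0.0385) and SC5D (0.16, adjusted p = 0.0117) among the rises. The groups did not overlap in 12 of the 27 genes (26.2% of all genes), and the median log2 fold change was -0.08. The lowest values were those of HMGCS1 (-0.32 ± 0.05, adjusted p = 9.41e-06), SREBF2 (-0.31 ± 0.04, adjusted p = 1.01e-07), INSIG1 (-0.30 ± 0.04, adjusted p = 6e-07) and DHCR7 (-0.28 ± 0.04, adjusted p = 4.22e-07).

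HMGCS1 was at 103, 102, 103 and 113 CPM with the combination, and INSIG1 at 215, 219, 214 and 215 CPM. Both lay between the irinotecan and the DMSO libraries without touching either. SREBF2 was at 229, 224, 217 and 231 CPM, which overlapped the irinotecan libraries and lay below all DMSO libraries. INSIG2 was at 31.0, 27.4, 30.8 and 34.1 CPM, which overlapped DMSO (-0.06 ± 0.07, adjusted p = 0.57), and IDI1 at 59.3, 52.6, 54.8 and 59.5 CPM overlapped it as well (0.04 ± 0.05, adjusted p = 0.526).

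The other falls were those of HSD17B7 (-0.26), ACAT2 (-0.25), LSS (-0.24), FDFT1 (-0.23), MSMO1 (-0.21), SQLE (-0.13) and LBR (-0.13). SQLE was not called without DMSO replicate 4 (-0.12, adjusted p = 0.0649) or combination replicate 1 (-0.13, adjusted p = 0.0581). LBR was not called without DMSO replicate 4 (-0.11, adjusted p = 0.0726) or combination replicate 2 (-0.11, adjusted p = 0.0669). Neither was called with library sizes alone (-0.08 and -0.07, adjusted p = 0.188 and 0.183). TM7SF2 rose, to 22.9, 22.8, 21.1 and 23.2 CPM (0.27 ± 0.07, adjusted p = 0.00329), as did NPC1, to 50.1, 46.9, 46.9 and 47.2 CPM (0.26 ± 0.05, adjusted p = 0.000383). NPC2 rose to 83.9, 79.0, 81.1 and 77.3 CPM (0.17 ± 0.05, adjusted p = 0.00948), where 1 library lay below the highest DMSO library.

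**Figure D4:**
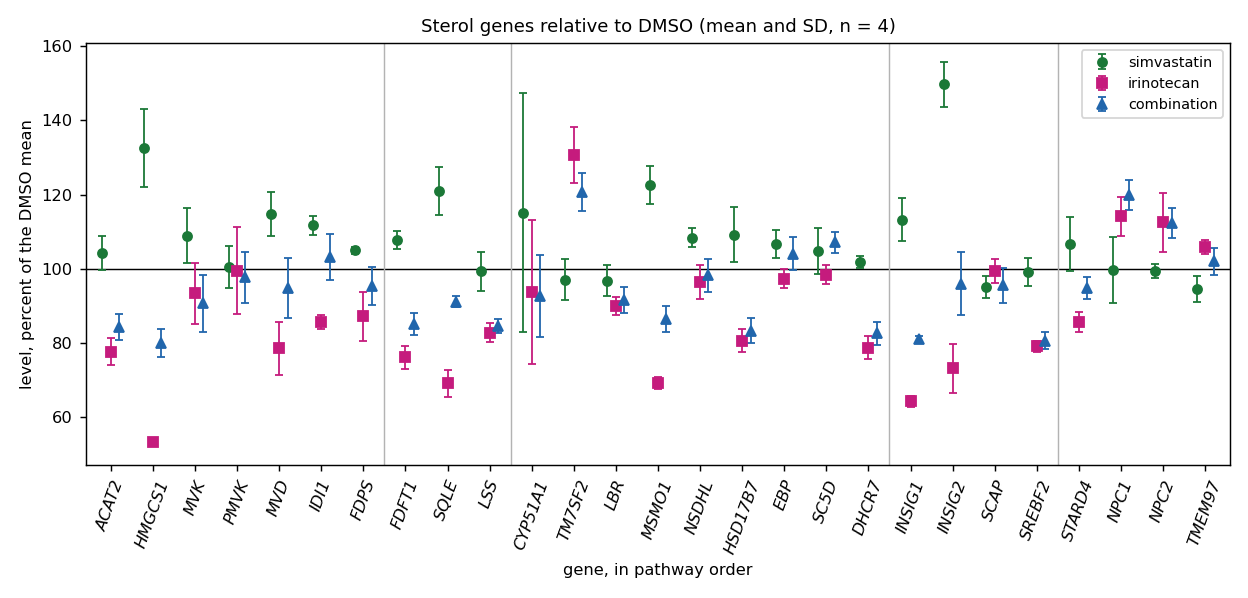
Level of each gene in the 3 treated groups as a percent of its DMSO mean (y axis; points, mean; whiskers, SD, n = 4; x axis, genes in pathway order, the y axis does not start at 0). In the order simvastatin, irinotecan, combination, HMGCS1 stands at 133%, 53.3% and 80.0%, and SREBF2 at 99.2%, 79.1% and 80.6%.

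The order of the 4 group means was the same in 13 of the 27 genes: simvastatin highest, then DMSO, the combination and irinotecan. The other 14 showed 7 further orders, none in more than 3 genes. The order rests on means alone, and the 13 include NSDHL, which was called in no comparison. How many of all genes tested show this order was not counted. For SQLE the combination stood at 91.2% of DMSO and irinotecan at 69.2%, and for MSMO1 at 86.4% and 69.2%. For LSS the values were 84.6% and 82.8%, and for DHCR7 82.6% and 78.8%.

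The combination against irinotecan asked what simvastatin added when irinotecan was present. Of the 27 genes, 8 were called (5.94% of all genes tested), and all 8 rose (4.45% of all genes rose and 1.50% fell). They were HMGCS1 (0.59 ± 0.05, adjusted p = 3.06e-09), SQLE (0.40 ± 0.04, adjusted p = 2.59e-07), INSIG2 (0.40 ± 0.07, adjusted p = 0.000216), INSIG1 (0.34 ± 0.04, adjusted p = 6.06e-07), MSMO1 (0.32 ± 0.04, adjusted p = 9.59e-06), IDI1 (0.27 ± 0.05, adjusted p = 0.000316), MVD (0.27 ± 0.07, adjusted p = 0.0193) and FDFT1 (0.16 ± 0.04, adjusted p = 0.00603). Over all genes 249 fell, and 126 to 156 without irinotecan replicate 1, 2 or 3 or combination replicate 1, 2 or 3, each left out alone. With library sizes alone the 27 genes again gave 8 rises, and over all genes the calls were 594 higher and 351 lower, in place of 740 and 249. The groups did not overlap in 9 genes, all higher with the combination (13.1% of all genes, 8.01% higher and 5.06% lower). SQLE, for example, was at 64.3, 65.4, 66.3 and 66.6 CPM with the combination, above all irinotecan libraries. MVD was not called without irinotecan replicate 4 (0.21, adjusted p = 0.0602) or without combination replicate 2 or 4 (0.25 and 0.23, adjusted p = 0.0619 and 0.0773). FDPS, at 0.13 ± 0.05 (adjusted p = 0.135), passed without irinotecan replicate 2 (0.18, adjusted p = 0.028). SREBF2 (0.03 ± 0.04, adjusted p = 0.771), SCAP (-0.06 ± 0.04, adjusted p = 0.521), NPC1 (0.07 ± 0.05, adjusted p = 0.52) and LSS (0.03 ± 0.04, adjusted p = 0.751) did not pass.

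This comparison and simvastatin against DMSO share no library. The 6 genes that rose with simvastatin alone were among the 8 that rose when it was added to irinotecan; over all genes tested, 517 of the 999 called with simvastatin alone (51.8%) were called again in the same direction. Across the 27 genes the correlation of the 2 sets of log2 fold changes was r = 0.82 (Spearman's rho = 0.72), and 0.86 (0.81) for the 26 genes without CYP51A1. The points are genes of the same 16 libraries and are not independent.

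The combination against simvastatin asked what irinotecan added when simvastatin was present. Of the 27 genes, 15 fell and 3 rose (11.7% and 13.9% of all genes tested), and the groups did not overlap in 20 (25.8% of all genes). With library sizes alone 13 fell and 4 rose (7.68% and 21.2% of all genes). HMGCS1 fell most (-0.73 ± 0.05, adjusted p = 3.49e-12), followed by INSIG2 (-0.64 ± 0.06, adjusted p = 6.98e-09), MSMO1 (-0.50 ± 0.04, adjusted p = 2.55e-10), INSIG1 (-0.48 ± 0.04, adjusted p = 9.45e-11), SQLE (-0.41 ± 0.04, adjusted p = 1.84e-08) and HSD17B7 (-0.39 ± 0.07, adjusted p = 4.05e-05). SREBF2 fell by 0.30 ± 0.04 (adjusted p = 2.45e-07). MVK, which adds the initial phosphate to mevalonate, passed in this comparison at -0.26 ± 0.07 (adjusted p = 0.00569) and not in irinotecan against DMSO (-0.10 ± 0.07, adjusted p = 0.351). Its interaction did not pass the test (adjusted p = 0.868). The other falls were those of FDFT1 (-0.34), ACAT2 (-0.31), DHCR7 (-0.30), MVD (-0.28), LSS (-0.23), STARD4 and FDPS. TM7SF2 (0.31), NPC1 (0.26) and NPC2 (0.18) rose. FDPS (-0.14, adjusted p = 0.0383) was not called when any 1 of simvastatin replicates 1 to 4 or combination replicates 1 and 3 was left out (-0.15 to -0.10, adjusted p = 0.0557 to 0.165). STARD4 (-0.17, adjusted p = 0.0147) was not called without simvastatin replicate 3 (-0.12, adjusted p = 0.0724) or combination replicate 2 (-0.15, adjusted p = 0.0538). IDI1 (-0.12, adjusted p = 0.0669) passed without combination replicate 1 or 4 (-0.14 in each, adjusted p = 0.0431 and 0.0421), and TMEM97 (0.11, adjusted p = 0.0517) without simvastatin replicate 3 or combination replicate 2 (0.13 in each, adjusted p = 0.0273 and 0.0341).

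Irinotecan against DMSO shares no library with this comparison, and 17 of its 19 called genes (89.5%) were called again here in the same direction, beside 2747 of 4015 (68.4%) over all genes tested. The correlation of log2 fold changes across the 27 genes was r = 0.94 (Spearman's rho = 0.93).

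**Figure D5:**
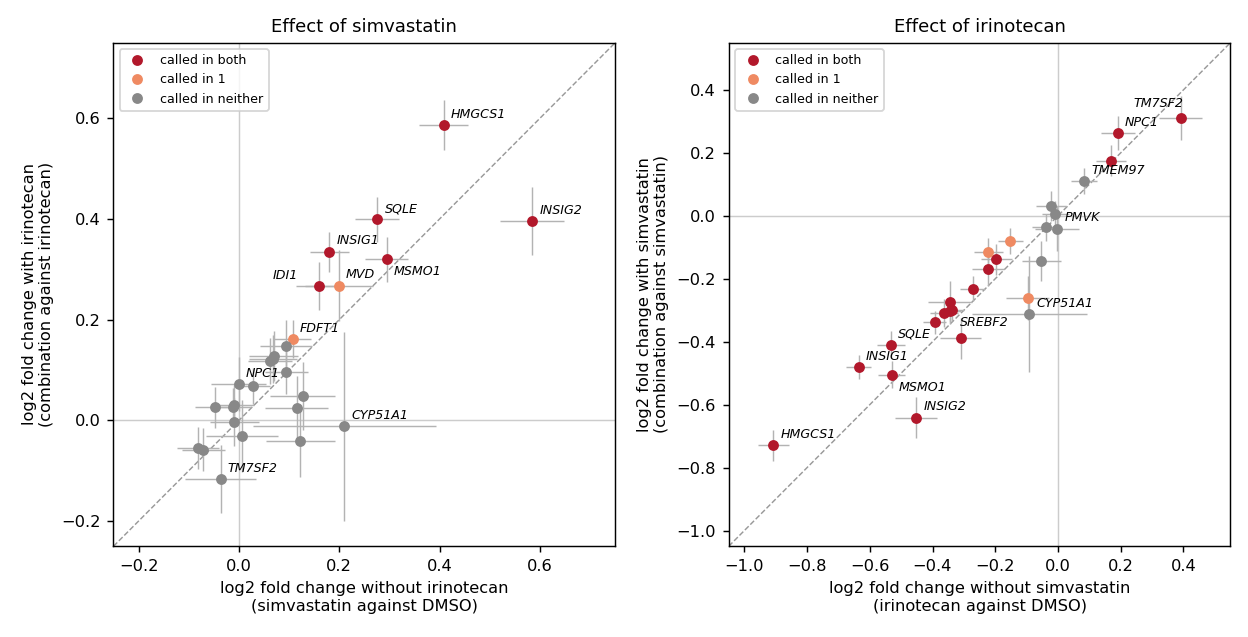
log2 fold change of each of the 27 genes without (x axis) and with (y axis) the other drug, for simvastatin (left) and irinotecan (right); bars are standard errors, the dashed line marks equal effects, and colour shows in how many of the 2 comparisons the gene was called. HMGCS1 lies at 0.41 and 0.59 for simvastatin and at -0.91 and -0.73 for irinotecan.

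The interaction asked whether the log2 fold change of 1 drug differed with the other present. None of the 27 genes passed the test (0.0120% of all genes did). At an unadjusted p under 0.05 there were 2 of 27 with edgeR and 2 with DESeq2, which also called none, beside 6.01% of all genes with edgeR. These 2 were HMGCS1 (0.18, 95% interval 0.04 to 0.32) and INSIG1 (0.16, 0.04 to 0.27), each with an adjusted p = 0.823. INSIG2 had the opposite sign (-0.19, -0.38 to 0.00, adjusted p = 0.828). SQLE had 0.12 (0.00 to 0.25) and MSMO1 0.03 (-0.10 to 0.15). The 95% intervals reached 0.10 to 0.21 to either side of the value in the 26 genes other than CYP51A1, where they reached 0.53. Departures from additivity on the log2 scale that were smaller than that were not resolved.

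Of the 27 genes, 20 were called in at least 1 of the 5 comparisons (74.1%, beside 41.1% of all genes tested) and 4 in all 5 (14.8%, beside 0.895%), HMGCS1, SQLE, MSMO1 and INSIG1. The 7 called in none were PMVK, which adds the next phosphate to mevalonate, CYP51A1, NSDHL, EBP, SC5D, SCAP and TMEM97. PMVK was at 28.2 to 32.9 CPM with DMSO and at 26.6 to 34.3 CPM in the other groups. EBP, an isomerase of the late pathway, was at 68.7 to 75.4 CPM in the DMSO libraries, 73.0 to 78.7 CPM in those of simvastatin, 67.2 to 70.9 CPM in those of irinotecan and 69.0 to 75.6 CPM in those of the combination. These ranges overlapped except for simvastatin against irinotecan, which was not among the comparisons tested.

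Other genes around the pathway were counted from 5 lists, to be read beside the shares of all genes given for each comparison above. Of 17 genes of SREBP processing and sterol sensing, 6 rose and 1 fell with simvastatin, none rose and 8 fell with irinotecan, 5 rose and 5 fell with the combination against DMSO, and 6 rose and none fell when simvastatin was added to irinotecan. The rises were led by genes of the COPII coat, which buds the vesicles that carry SCAP and SREBP2 along with other cargo. SEC24D rose by 0.53 ± 0.04 with simvastatin (adjusted p = 3.57e-10) and by 0.57 ± 0.04 when it was added to irinotecan (adjusted p = 1.17e-10). SEC24A rose by 0.51 (adjusted p = 9.41e-08) and 0.55 (adjusted p = 3.37e-08) in the same comparisons. When irinotecan was added to simvastatin 1 rose and 6 fell. RNF145, which encodes a sterol-responsive ubiquitin ligase, fell with irinotecan (-0.35, adjusted p = 5.6e-09) and in the combination against simvastatin (-0.32, adjusted p = 2.11e-08).

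Of 21 genes of isoprenoid use and prenylation, 2 rose with simvastatin, DHDDS (0.20, adjusted p = 0.00416) and NUS1 (0.19, adjusted p = 0.0146), which together make the lipid dolichol. When simvastatin was added to irinotecan 3 rose, DHDDS and NUS1 among them (0.18 and 0.26), and with irinotecan alone 1 fell (NUS1, -0.13, adjusted p = 0.0478). With the combination 3 rose and 1 fell against DMSO, and none rose and 3 fell against simvastatin. Of 18 tested genes of cholesterol handling, none changed with simvastatin (median 0.01), and with irinotecan 5 rose and 2 fell. The falls were those of the lipoprotein receptor genes LRP8 (-0.46, adjusted p = 1.44e-10) and VLDLR (-0.24, adjusted p = 3.13e-06). OSBPL2, an oxysterol-binding protein gene, rose (0.27, adjusted p = 2.23e-05). LRP1, a further and large lipoprotein receptor gene, and GRAMD1B, a sterol carrier gene, also rose with irinotecan (0.56 and 0.61, adjusted p = 0.000611 and 0.000412); they are named here after their values were seen. With the combination against DMSO 7 rose and 2 fell, with LRP1 at 0.72 (adjusted p = 4.37e-05). Of 9 partner enzymes none changed with simvastatin, and with irinotecan 1 rose, the electron donor POR (0.22, adjusted p = 0.00443), and 1 fell, PGRMC1 (-0.15, adjusted p = 0.00123), which is near the 12.4% and 11.7% of all genes. Of 5 genes of acetyl-CoA supply none changed with simvastatin and 1 fell with irinotecan, the citrate carrier SLC25A1 (-0.15, adjusted p = 0.0222).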

How the data were processed

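Poly(A) RNA from U-251 MG cells was measured in 16 libraries, 4 per group. Values are counts as deposited by the authors, raw whole numbers for each gene. The submitters' processing notes name FastQC, STAR 2.7.1, DESeq2 and the build GRCh38, with no role or order. How reads were counted, the strand setting and the annotation: not given in the sources used here. Totals were 24159673 to 32318888 counts. In every group the library without a number in its title is called replicate 4. No library was left out, and none was a copy of another (chi-squared per degree of freedom within groups, 2.59 to 15.4).

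In R 4.3.3, edgeR 4.0.16 kept 16647 of 58243 genes (filterByExpr, minimum count 10, minimum total 15). After TMM scaling, robust quasi-likelihood fits with a term for each group used the 16 libraries together. F tests, which are two-sided, were adjusted by Benjamini-Hochberg over the genes tested, and a gene was called under 0.05. Standard errors follow from the F statistic. The script was tested on simulated data. Exons and lengths came from GENCODE 29 (GRCh38), and promoters from RefSeq (GRCh38.p14).

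All 27 genes are counted in each comparison, and those called are named, whereas those not called are named in part. Values by library are given for the 6 called genes with the largest changes with each single drug against DMSO. They are also given for INSIG1, INSIG2 and SREBF2 in all groups and for SCAP with DMSO and irinotecan. For further genes along the pathway they are given in some groups. Up to 3 called genes are named per further list and comparison, apart from those marked above as named after their values were seen. Genes and lists were chosen with earlier results of these data known. Some other genes of the pathway are not reported here. The alternatives were another tool (DESeq2 1.42.0), its size factors, all genes unfiltered, a threshold of 0.01, the compared groups alone, the 12 numbered libraries with and without a replicate block, leaving out each library and, added after seeing the data, library sizes alone.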

Additional observations from a re-analysis of the deposited data

Results flagged for a closer look

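In 7 of the 108 groups of 4 libraries (27 genes in 4 treatments), 1 library lay far from the other 3, by a gap that took up most of the range of the group (Dixon, 95% level). Chance gives this in about 1 in 20 groups, or 5.4 of 108. HMGCS1 was at 113 CPM in combination replicate 4, above 102 to 103 CPM in the others. DMSO replicate 4 was low in LSS, at 195 CPM against 212 to 214 CPM, and in TM7SF2, at 15.6 CPM against 19.5 to 19.8 CPM. EBP was at 75.4 CPM in DMSO replicate 3, above 68.7 to 69.7 CPM, and at 69.0 CPM in combination replicate 3, below 74.7 to 75.6 CPM. DHCR7 was at 312 CPM in simvastatin replicate 3, above 301 to 303 CPM. NPC1 was at 50.1 CPM in combination replicate 1, above 46.9 to 47.2 CPM. No call of these genes was lost when the library named was left out.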

How the results depend on the processing

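The 27 genes had 65 called values in the 5 comparisons. Over the 24 alternatives 53 of them kept the call throughout and 12, in 10 genes, lost it under at least 1. None of the 65 changed direction under any alternative. With each library left out in turn, the number of the 27 genes called was 5 to 7 for simvastatin against DMSO, 18 to 19 for irinotecan, 12 to 14 for the combination, 7 to 9 for the combination against irinotecan and 17 to 19 against simvastatin. In the same order, the calls over all genes were 664 to 1224, 3393 to 4188, 3998 to 4828, 674 to 1113 and 3479 to 4371. Over all genes, simvastatin against DMSO gave 999 calls, 664 without simvastatin replicate 4 and 1224 without simvastatin replicate 3, and the combination against irinotecan 989, or 674 without irinotecan replicate 1. The interaction gave 2 calls, with 0 to 9 when a library was left out, 14 with no filter on low counts and 5 with DESeq2. At an adjusted p under 0.01 the calls were 558, 2587, 3032, 529, 2681 and 0, in the order simvastatin, irinotecan and combination against DMSO, combination against irinotecan and against simvastatin, and interaction. With the 12 numbered libraries alone, simvastatin gave 513 and the interaction 1. Among the 27 genes, IDI1 then lost its call with simvastatin (0.16, adjusted p = 0.162). FDPS and NPC1 lost theirs with irinotecan (-0.16 and 0.16, adjusted p = 0.0605 and 0.0956). With the combination SQLE, TM7SF2 and LBR lost the call (-0.13, 0.18 and -0.10, adjusted p = 0.0907, 0.0688 and 0.137). MVD and FDFT1 lost it in the combination against irinotecan (0.17 and 0.14, adjusted p = 0.165 and 0.0911). FDPS also lost it in the combination against simvastatin (-0.16, adjusted p = 0.0529).

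The replicate numbers were not taken to pair the libraries in the main tests, a choice that the values do not settle. Same-numbered libraries of different groups correlated at -0.08 to 0.16 (median 0.06) in their deviations from the group means. Other pairs correlated at -0.19 to 0.10 (median -0.04). In 24 of 36 checks a library correlated best with its own number in another group, more often than a random pick would give. Same-numbered libraries were thus somewhat more alike, which the main tests leave out. With a replicate block on the 12 numbered libraries, 8, 19, 16, 9 and 19 of the 27 genes were called in the 5 comparisons and 0 in the interaction. Over all genes the combination against irinotecan then gave 2016 calls, in place of 989, and the interaction 190, in place of 2. Counts over all genes with the block are not given here for the other comparisons. The larger counts among the 27 genes are therefore not read as a gain of the set. The genes that gained a call with the block were MVD (0.18, adjusted p = 0.0348) and STARD4 (0.16, adjusted p = 0.0206) with simvastatin, MVD (-0.17, adjusted p = 0.0194) and INSIG2 (-0.16, adjusted p = 0.0379) with the combination, STARD4 in the combination against irinotecan (0.15, adjusted p = 0.0295) and IDI1 in that against simvastatin (-0.14, adjusted p = 0.0343), and none of the 27 lost one. Dispersion between libraries was low (common biological coefficient of variation 5.25%), but CYP51A1, at 1.48 to 3.41 CPM, had standard errors of 0.18 to 0.19, which exceed most changes seen in the set. The cause of the changed counts was not tested.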
